A study of Mus musculus with 20 samples.

Results

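Genes that mark T cells and natural killer (NK) cells were followed in bulk mouse bone marrow, across a splicing factor mutation and a splicing modulator drug. The 10 genes were chosen by symbol, matched to the Ensembl identifiers of the deposited gene table, and are all found among its 37620 genes. They were grouped by role as the CD3 chains of the T cell receptor complex (Cd3d, Cd3e, Cd3g), the T cell coreceptors (Cd4, Cd8a), the NK cell receptors (Klrb1c, Ncr1) and the cytotoxic granule genes (Nkg7, Gzma, Prf1). RNA-seq had been made from 20 mice in 4 groups of 5. All mice were lethally irradiated congenic recipients of bone marrow from young adult donors that carried a doxycycline-inducible transgene and its activator, rtTA, and all were fed doxycycline chow (625 ppm) for 7 days. The transgene was U2AF1(WT) or U2AF1(S34F), the latter with the serine-to-phenylalanine change seen in myelodysplastic syndromes, so the control genotype also overexpressed U2AF1. For the last 5 of those days mice were infused intravenously with sudemycin D6, a compound that perturbs the SF3B1-containing part of the spliceosome, or with vehicle. Donor marrow was pooled from several mice, so mice of 1 genotype were not independent donors, and lymphocytes of the irradiated host can persist after transplantation. The paper describes the recipients as hybrids from a cross of different mouse strains. Whether the donor pools of the genotypes differed in strain background was not tested. The comparisons ask what differed with the drug, with the genotype, and with both together.

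Mature T cells recognise antigen through the T cell receptor, which needs the CD3 chains to reach the cell surface and to signal. CD4 and CD8 bind the major histocompatibility molecules that present antigen and divide T cells into helper and cytotoxic classes. NK cells carry no rearranged receptor. They balance activating receptors, such as NKp46 (Ncr1) and NK1.1 (Klrb1c), against inhibitory receptors such as NKG2A (Klrc1), while the Ly49 (Klra) family holds receptors of both kinds, and kill with perforin (Prf1) and granzymes. Both cell types are minor populations in bone marrow, which is dominated by granulocytes and their precursors. U2AF1 recognises the AG at the 3′ end of introns, and the S34F change alters which bases next to that AG are preferred.

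Library totals ran from 41145892 to 62138138 gene counts per mouse, and all 10 genes passed the filter on low counts in every comparison. The marrow was rich in granulocytes, since 6 neutrophil markers summed to between 26019 and 45465 CPM (counts scaled to library size) per mouse. Genotype was tied to sex-linked transcripts: Eif2s3y, on the Y chromosome, had 0 counts in all U2AF1(WT) mice and 4073 to 6120 in U2AF1(S34F) mice, while Xist had 39145 to 78640 counts in U2AF1(WT) mice and at most 8 in U2AF1(S34F) mice. Genotype and sex therefore cannot be told apart below. Counts on the mouse U2af1 gene averaged 36.1 ± 1.38 CPM (SD, n = 5) in vehicle U2AF1(WT) and 51.0 ± 3.32 CPM in vehicle U2AF1(S34F) mice, which does not separate transgene from endogenous transcript. In bulk marrow, fewer cells of a type and less RNA per cell cannot be told apart.

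Per length, Nkg7 was the most abundant of the 10 genes, at 52.2 ± 8.24 RPKM (CPM per kilobase of exon, mean ± SD over 20 mice). Gzma (10.3 ± 2.84) and Ncr1 (6.47 ± 3.07) came next on the RPKM scale, followed by Cd3d (3.98 ± 1.21), Klrb1c (2.50 ± 1.31), Cd3g (1.70 ± 0.792) and Prf1 (1.33 ± 0.430). The lowest RPKM levels were those of Cd3e (0.870 ± 0.627), Cd4 (0.674 ± 0.216) and Cd8a (0.639 ± 0.355). Apart from Nkg7 and Gzma, the mean ± SD ranges of neighbours in this order overlapped. Nkg7 varied least between mice, with the highest mouse 1.56-fold above the lowest, and Cd3e varied most, at 9.46-fold.

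**Figure D1:**
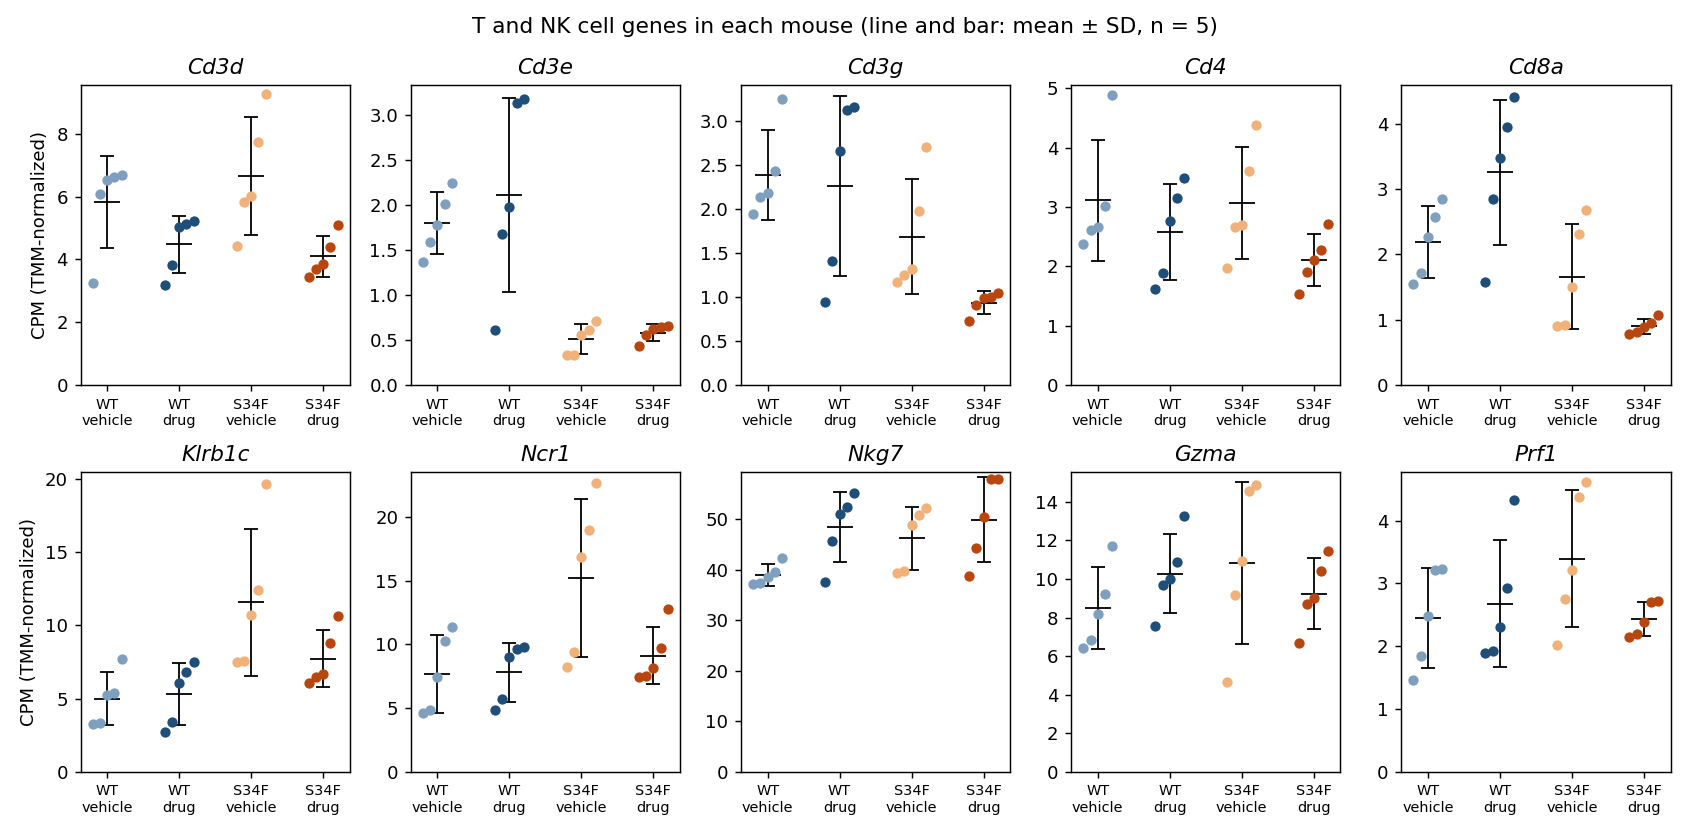
CPM (vertical axis, linear, from 0) of each of the 10 genes in each mouse (points), by genotype and treatment. Horizontal lines are means and bars are ± SD (n = 5). Cd3e is low in both U2AF1(S34F) groups, Cd8a and Cd3g are low and tightly spaced in U2AF1(S34F) mice given drug, and Klrb1c and Ncr1 are highest in U2AF1(S34F) mice given vehicle.

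Of the CD3 chains, Cd3e and Cd3g were lower in U2AF1(S34F) marrow and Cd3d was not called. Cd3e (ENSMUSG00000032093, mm9 chr9:44806826-44817673, minus strand), which encodes the epsilon chain, was 1.80 ± 0.345 CPM (SD, n = 5) in vehicle U2AF1(WT) mice and 0.509 ± 0.167 CPM in vehicle U2AF1(S34F) mice. The 5 vehicle U2AF1(WT) mice held 1.37, 1.58, 1.78, 2.01 and 2.24 CPM and the 5 vehicle U2AF1(S34F) mice 0.335, 0.336, 0.560, 0.609 and 0.706 CPM, and these ranges did not overlap. The log2 fold change was -1.76 ± 0.249 (SE), with an edgeR quasi-likelihood adjusted p of 0.000327. Under drug the U2AF1(WT) mice held 0.606, 1.68, 1.98, 3.12 and 3.17 CPM of Cd3e and the U2AF1(S34F) mice 0.435, 0.556, 0.627, 0.641 and 0.651 CPM. Here 1 U2AF1(WT) mouse, number 9, fell inside the U2AF1(S34F) range, and the log2 fold change was -1.80 ± 0.367 (edgeR adjusted p = 0.00416). Over both treatments Cd3e fell to a log2 fold change of -1.77 ± 0.221 (edgeR adjusted p = 1.97e-06), and it stayed past the threshold with each of the 20 mice left out in turn.

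Cd3g (chr9:44777655-44788514, minus strand), the gamma chain, had 1.95, 2.14, 2.18, 2.43 and 3.26 CPM in vehicle U2AF1(WT) mice and 0.943, 1.40, 2.66, 3.13 and 3.16 CPM in U2AF1(WT) mice given drug. Vehicle U2AF1(S34F) mice held 1.17, 1.26, 1.32, 1.98 and 2.71 CPM of Cd3g, and U2AF1(S34F) mice given drug 0.725, 0.906, 0.995, 0.999 and 1.05 CPM. The 5 mice of the last group lay below every other mouse except U2AF1(WT) drug mouse 9. Cd3g fell with genotype under drug (log2 fold change -1.25 ± 0.316, edgeR adjusted p = 0.0123) and over both treatments (-0.86 ± 0.216, edgeR adjusted p = 0.00254). Under vehicle its difference was -0.51 ± 0.241 (edgeR adjusted p = 0.123). Without vehicle U2AF1(S34F) mouse 3, the highest of its group, that difference was -0.73 with an edgeR adjusted p of 0.0274.

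Cd3d (chr9:44789876-44795135, plus strand), the delta chain, is transcribed away from Cd3g, with 1361 bases between the starts of these neighbours, and the 3 CD3 genes span 40019 bases. It showed no called genotype difference, with log2 fold changes of 0.18 ± 0.218 under vehicle (edgeR adjusted p = 0.57), -0.13 ± 0.174 under drug (0.621) and 0.03 ± 0.148 over both treatments (0.872). It was 3.24, 6.08, 6.51, 6.61 and 6.69 CPM in vehicle U2AF1(WT) mice and 3.19, 3.82, 5.02, 5.14 and 5.21 CPM in U2AF1(WT) mice given drug. In U2AF1(S34F) mice it was 4.41, 5.82, 6.02, 7.73 and 9.25 CPM with vehicle and 3.43, 3.69, 3.87, 4.41 and 5.09 CPM with drug. The drug groups overlapped the vehicle groups in both genotypes. Cd3d was the member called for drug over both genotypes (log2 fold change -0.54 ± 0.148, edgeR adjusted p = 0.0235), and it fell with drug in U2AF1(S34F) mice (-0.70 ± 0.186, edgeR adjusted p = 0.0483). In U2AF1(WT) mice the drug difference was -0.40 ± 0.212 (edgeR adjusted p = 0.456).

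Of the coreceptors, Cd8a fell with genotype over both treatments and Cd4 did not pass that test. Cd8a (chr6:71323421-71329165, plus strand) was 1.57, 2.85, 3.48, 3.96 and 4.41 CPM in U2AF1(WT) mice given drug and 0.774, 0.818, 0.886, 0.943 and 1.07 CPM in U2AF1(S34F) mice given drug. These groups did not overlap, and the log2 fold change was -1.82 ± 0.257 (edgeR adjusted p = 0.000563). With vehicle the U2AF1(WT) mice held 1.55, 1.71, 2.27, 2.57 and 2.84 CPM of Cd8a and the U2AF1(S34F) mice 0.905, 0.920, 1.51, 2.31 and 2.67 CPM, which overlapped (log2 fold change -0.41 ± 0.300, edgeR adjusted p = 0.325). Over both treatments Cd8a fell by 1.09 ± 0.260 on the log2 scale (edgeR adjusted p = 0.00163). Counted from splice junction reads instead, in an alternative chosen after seeing the data, this was -0.81 with an edgeR adjusted p of 0.112. Cd4 (chr6:124814710-124838239, minus strand) averaged 3.11 ± 1.02 and 2.58 ± 0.808 CPM in U2AF1(WT) mice with vehicle and drug and 3.07 ± 0.938 and 2.11 ± 0.441 CPM in U2AF1(S34F) mice. Its genotype differences were -0.04 ± 0.238 under vehicle and -0.30 ± 0.239 under drug on the log2 scale (edgeR adjusted p = 0.92 and 0.383). Over both treatments the difference was -0.15 ± 0.174 on the log2 scale (edgeR adjusted p = 0.491).

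Both NK cell receptors rose with genotype over both treatments. Klrb1c (chr6:128728503-128739233, minus strand) was 3.26, 3.35, 5.24, 5.38 and 7.72 CPM in vehicle U2AF1(WT) mice and 7.48, 7.56, 10.7, 12.4 and 19.6 CPM in vehicle U2AF1(S34F) mice. The groups met only at the highest U2AF1(WT) mouse, number 1, and Klrb1c was 2.28-fold higher in the U2AF1(S34F) mice (log2 fold change 1.19 ± 0.300, edgeR adjusted p = 0.0125). Under drug Klrb1c was 2.73, 3.41, 6.08, 6.83 and 7.47 CPM in U2AF1(WT) mice and 6.05, 6.46, 6.69, 8.80 and 10.6 CPM in U2AF1(S34F) mice, with a log2 fold change of 0.53 ± 0.274 (edgeR adjusted p = 0.17). Over both treatments it rose by 0.87 ± 0.227 (edgeR adjusted p = 0.00364).

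Ncr1 (chr7:4289326-4296766, plus strand) was 4.61, 4.85, 7.40, 10.3 and 11.3 CPM in vehicle U2AF1(WT) mice and 8.21, 9.41, 16.8, 19.0 and 22.7 CPM in vehicle U2AF1(S34F) mice. The groups overlapped, and the log2 fold change was 0.96 ± 0.339 (edgeR adjusted p = 0.0538). This call was lost without vehicle U2AF1(WT) mouse 3 or 4 or vehicle U2AF1(S34F) mouse 3 or 5, each alone, with edgeR adjusted p-values of 0.105, 0.116, 0.105 and 0.103. Under drug the U2AF1(WT) mice held 4.82, 5.72, 9.02, 9.65 and 9.78 CPM of Ncr1 and the U2AF1(S34F) mice 7.41, 7.54, 8.18, 9.70 and 12.8 CPM, with a log2 fold change of 0.22 ± 0.223 (edgeR adjusted p = 0.506). Over both treatments Ncr1 rose by 0.60 ± 0.226 (edgeR adjusted p = 0.0342).

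Of the cytotoxic granule genes, Nkg7 was called for genotype under vehicle and the others were not. Nkg7 (chr7:50692443-50693616, plus strand), a granule membrane protein gene, was 37.1, 37.3, 38.5, 39.6 and 42.4 CPM in vehicle U2AF1(WT) mice and 39.3, 39.8, 48.8, 50.8 and 52.2 CPM in vehicle U2AF1(S34F) mice. These groups overlapped, and the rise was 1.18-fold (log2 fold change 0.23 ± 0.095, edgeR adjusted p = 0.0782). This call was lost, at edgeR adjusted p-values of 0.115 and 0.253, in one model of all 20 mice and with junction counts summed per gene. It was also lost without any one of 6 mice, namely vehicle U2AF1(WT) mouse 1, 3 or 5 or vehicle U2AF1(S34F) mouse 1, 7 or 11, with edgeR adjusted p-values of 0.12 to 0.194. Under drug Nkg7 averaged 48.4 ± 6.93 CPM in U2AF1(WT) and 49.9 ± 8.44 CPM in U2AF1(S34F) mice, a log2 difference of 0.04 ± 0.129 (edgeR adjusted p = 0.854). Over both treatments its genotype difference was 0.14 ± 0.083 on the log2 scale (edgeR adjusted p = 0.163).

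Gzma (chr13:113884033-113891187, minus strand), which encodes the serine protease granzyme A, averaged 8.49 ± 2.12 and 10.3 ± 2.05 CPM in U2AF1(WT) mice with vehicle and drug, and 10.8 ± 4.21 and 9.25 ± 1.82 CPM in U2AF1(S34F) mice. Prf1 (chr10:60760584-60767011, plus strand), the gene of pore-forming perforin, averaged 2.44 ± 0.796 and 2.68 ± 1.01 CPM in U2AF1(WT) and 3.40 ± 1.10 and 2.43 ± 0.269 CPM in U2AF1(S34F) mice. Every pair of groups overlapped for both genes. For genotype over both treatments, Gzma differed by 0.10 ± 0.175 (95% interval -0.24 to 0.44) and Prf1 by 0.17 ± 0.191 (-0.21 to 0.54) on the log2 scale (edgeR adjusted p = 0.67 and 0.499). Under vehicle the genotype differences were 0.34 ± 0.275 and 0.46 ± 0.261 (edgeR adjusted p = 0.38 and 0.202), and under drug -0.16 ± 0.169 and -0.15 ± 0.233 (0.524 and 0.677). Neither was called in any comparison with all mice included. Without vehicle U2AF1(S34F) mouse 11, Gzma was called for genotype under vehicle (log2 fold change 0.53, edgeR adjusted p = 0.0597) and Prf1 for drug in U2AF1(S34F) mice (-0.62, edgeR adjusted p = 0.0844).

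**Figure D2:**
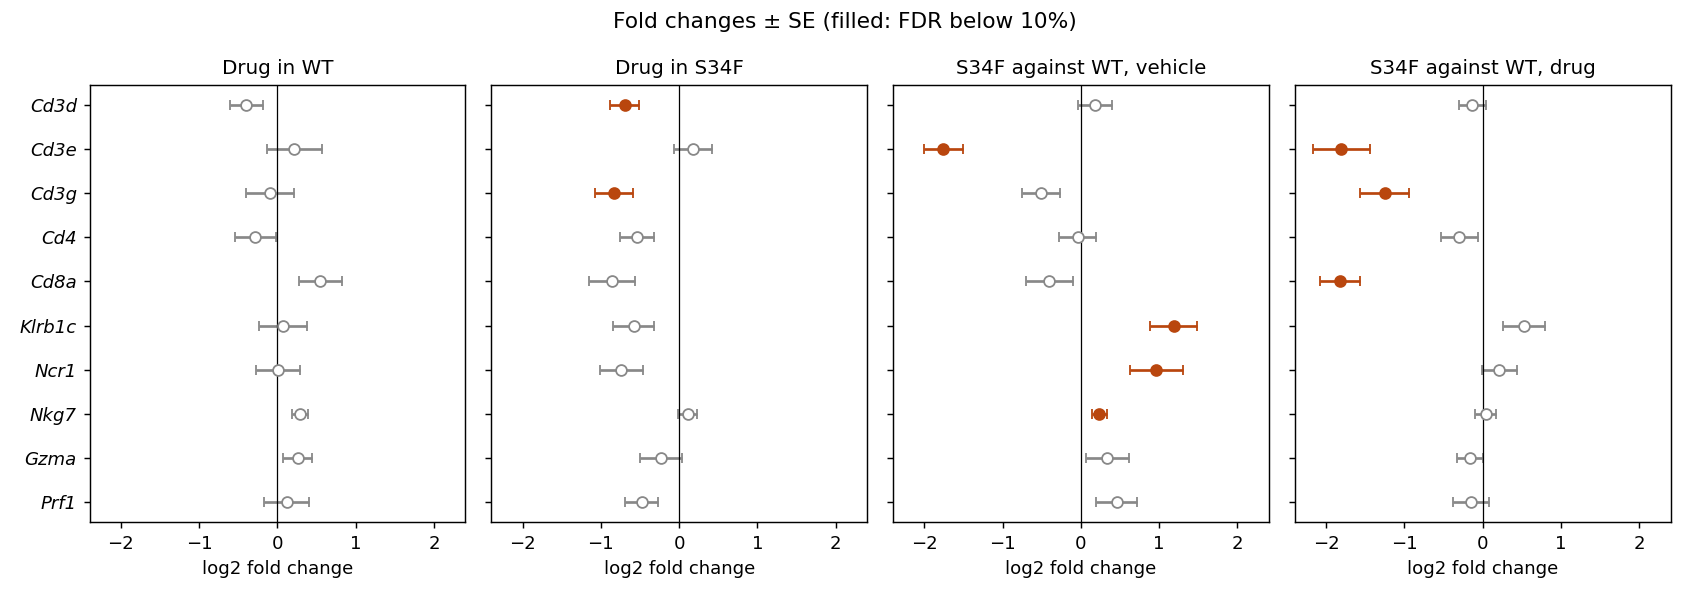
Log2 fold changes ± SE (horizontal axis) of the 10 genes for drug against vehicle within each genotype and for U2AF1(S34F) against U2AF1(WT) within each treatment, from edgeR. Filled points passed an adjusted p below 10%. Cd3e lies near -1.8 in both genotype panels, and the Klrb1c and Ncr1 points are filled under vehicle and open under drug.

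The counts of called genes were read against all genes. For genotype over both treatments, 3 of the 10 genes fell and 2 rose, where 27.1% of all 15392 tested genes fell and 26% rose (53.1% called in all). Under vehicle 4 of 10 were called (Cd3e lower, and Klrb1c, Ncr1 and Nkg7 higher) against 39.5% of all genes. Under drug 3 of 10 were called, all lower (Cd3e, Cd3g and Cd8a), against 36.8%. The median log2 fold change of the 10 genes was 0.20 under vehicle and -0.15 under drug, beside 0.00 and -0.03 over all genes tested.

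The drug called fewer of them. In U2AF1(WT) mice 0 of 10 passed the edgeR test, against 3.07% of all genes, and 0 passed with DESeq2, against 5.17% of the genes to which it gave an adjusted p. At an unadjusted p under 0.05 there was 1 (Nkg7, log2 fold change 0.29 ± 0.104, edgeR adjusted p = 0.22), beside 1959 of all 14763 tested genes. The other log2 drug differences in U2AF1(WT) mice, beside that of Cd3d above, were 0.21 ± 0.349 for Cd3e, -0.09 ± 0.310 for Cd3g, -0.28 ± 0.262 for Cd4 and 0.55 ± 0.270 for Cd8a. They were 0.07 ± 0.307 for Klrb1c, 0.00 ± 0.281 for Ncr1, 0.26 ± 0.184 for Gzma and 0.12 ± 0.286 for Prf1, with edgeR adjusted p-values of 0.409 to 0.997 for these 8 genes.

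In U2AF1(S34F) mice 2 of 10 fell, Cd3d and Cd3g, against 10.8% of all genes called. The Cd3g groups there did not overlap, and its log2 fold change was -0.83 ± 0.242 (edgeR adjusted p = 0.0647). That call was lost without vehicle mouse 3 or 11 or drug mouse 2, 6, 9 or 10, each alone (edgeR adjusted p = 0.104 to 0.135), and the Cd3d call without drug mouse 2 or 10 (edgeR adjusted p = 0.108 and 0.103). DESeq2 called 5 of the 10 in this comparison, adding Cd4, Cd8a and Ncr1, all lower with drug, against 14.9% of the genes to which it gave an adjusted p. In edgeR these had log2 drug differences of -0.53 ± 0.218, -0.86 ± 0.294 and -0.74 ± 0.276 (edgeR adjusted p = 0.17, 0.106 and 0.144). Those of the others were 0.17 ± 0.244 for Cd3e, -0.58 ± 0.263 for Klrb1c, 0.11 ± 0.120 for Nkg7, -0.23 ± 0.268 for Gzma and -0.48 ± 0.209 for Prf1 (edgeR adjusted p = 0.197 to 0.721).

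Over both genotypes 1 of 10 was called for drug, Cd3d, against 15% of all genes. Log2 drug differences of the other T cell genes were 0.21 ± 0.216 for Cd3e, -0.44 ± 0.215 for Cd3g, -0.40 ± 0.174 for Cd4 and -0.12 ± 0.248 for Cd8a. Those of the NK and granule genes were -0.25 ± 0.227 for Klrb1c, -0.36 ± 0.226 for Ncr1, 0.21 ± 0.083 for Nkg7, 0.02 ± 0.175 for Gzma and -0.17 ± 0.191 for Prf1. Among these 9 genes the edgeR adjusted p ran from 0.113 (Nkg7) to 0.957 (Gzma).

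In U2AF1(S34F) mice given drug the 10 genes had 8 negative log2 drug differences and a median of -0.56, beside -0.01 over all genes. In U2AF1(WT) mice 3 were negative, with a median of 0.09. The difference between these drug effects, the interaction of genotype and drug, was called for 0 of 10 genes by edgeR, against 0.013% of all genes. DESeq2 called 1, Cd8a (log2 interaction -1.44, DESeq2 adjusted p = 0.0851), against 0.759% of the genes to which it gave an adjusted p. Cd8a was also the 1 member at an unadjusted p under 0.05 in edgeR (-1.43 ± 0.413, edgeR adjusted p = 0.347), beside 1144 of all 15392 tested genes. The log2 interactions of the other T cell genes were -0.32 ± 0.293 for Cd3d, -0.05 ± 0.537 for Cd3e, -0.75 ± 0.403 for Cd3g and -0.27 ± 0.349 for Cd4. Those of the remaining genes were -0.67 ± 0.433 for Klrb1c, -0.76 ± 0.423 for Ncr1, -0.20 ± 0.163 for Nkg7, -0.51 ± 0.339 for Gzma and -0.61 ± 0.365 for Prf1, and the edgeR adjusted p of these 9 genes ran from 0.72 to 0.994.

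With both the mutation and the drug, against neither, 7 of 10 were called against 50.2% of all genes. Among them 5 fell (25.1% of all genes fell), and 2 rose (25.1% of all genes rose). All 5 T cell genes were among those that fell. Cd3e (log2 fold change -1.56 ± 0.202), Cd3g (-1.32 ± 0.188) and Cd8a (-1.25 ± 0.203) did not overlap between the groups, with edgeR adjusted p-values of 9.09e-05, 0.000191 and 0.000463. Cd3d (-0.50 ± 0.187, edgeR adjusted p = 0.0445) and Cd4 (-0.56 ± 0.214, edgeR adjusted p = 0.0512) overlapped. How many of all tested genes also had groups that did not overlap was not computed, here or in the comparisons above. Klrb1c (0.63 ± 0.233, edgeR adjusted p = 0.0454) and Nkg7 (0.35 ± 0.105, edgeR adjusted p = 0.0153) rose. Ncr1 (0.24 ± 0.253), Gzma (0.12 ± 0.172) and Prf1 (-0.01 ± 0.214) were not called, with edgeR adjusted p-values of 0.462, 0.594 and 0.984. Without vehicle U2AF1(WT) mouse 1 the calls of Cd3d and Cd4 were lost (edgeR adjusted p = 0.101 and 0.165), and the log2 fold change of Cd4 moved from -0.56 to -0.33. Calls were also lost without U2AF1(S34F) drug mouse 12 for Cd4 (0.115) and without vehicle U2AF1(WT) mouse 4 or U2AF1(S34F) drug mouse 2 for Klrb1c (0.102 and 0.115). The vehicle U2AF1(WT) and U2AF1(S34F) drug mice of this comparison are also used in the comparisons above.

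Wider lists of T and NK cell genes, which hold none of the 10, were examined beside them. Of 14 tested T cell transcription factor and state genes, 11 fell and 0 rose with genotype over both treatments, where 27.1% of all genes fell, with a median log2 fold change of -1.05 beside -0.01 over all genes. Those that fell most were Foxp3, the regulatory T cell factor (-1.51 ± 0.270), Lef1 (-1.47 ± 0.252) and Bcl11b, a T lineage commitment factor (-1.33 ± 0.263), with edgeR adjusted p-values of 0.0001, 7.16e-05 and 0.0003. Of 17 T cell receptor and signalling genes 9 fell and 0 rose, again beside 27.1% of all genes, with a median of -0.37. Lef1 averaged 3.54 ± 0.970 CPM in vehicle U2AF1(WT) and 0.885 ± 0.317 CPM in U2AF1(S34F) mice given drug.

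Among 26 NK cell receptor and adaptor genes, 10 rose and 2 fell with genotype, where 26% of all genes rose and 27.1% fell, with a median of 0.37. The Ly49 genes Klra3 (1.70 ± 0.315), Klra8 (1.56 ± 0.302) and Klra7 (1.01 ± 0.232) rose, as did Klrc1, which encodes NKG2A (1.25 ± 0.203), with edgeR adjusted p-values of 0.000149, 0.000262, 0.00126 and 3.9e-05. The Klra genes are related in sequence, and reads of the most similar ones can be split between them, so each value is uncertain. Whether strain background had a part in the genotype differences of the Klra genes and Klrb1c was not tested. Klra3 was also near the floor, at 0.167 ± 0.144 CPM in vehicle U2AF1(WT) and 0.816 ± 0.317 CPM in vehicle U2AF1(S34F) mice. S1pr5, a receptor that mature NK cells use to leave the marrow, fell by 1.70 ± 0.292 on the log2 scale (edgeR adjusted p = 8.66e-05). It averaged 6.19 ± 1.85 CPM in vehicle U2AF1(WT) and 1.96 ± 0.981 CPM in vehicle U2AF1(S34F) mice, and which marrow cells its reads came from was not tested. Within vehicle, Klra3 (2.04), Klra8 (1.76), Klrc1 (1.69) and Klra9 (1.29) rose most, and S1pr5 (-1.66), Foxp3 (-1.51), Lef1 (-1.38) and Ctla4 (-1.29) fell most on the log2 scale. Within drug, Klra3 (1.35), Klra8 (1.32), Ctsc (0.91) and Klrc1 (0.78) rose most and S1pr5 (-1.76), Ccr7 (-1.75), Bcl11b (-1.62) and Lef1 (-1.58) fell most. Ctsc encodes a protease that activates granzymes and is also abundant in myeloid cells, and Ccr7 guides naive T cells.

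Of 10 tested cytotoxic effectors, 5 fell and 0 rose with drug over both genotypes, where 7.22% of all genes fell, among them Ifng (-0.89 ± 0.223) and the chemokine gene Ccl5 (-0.75 ± 0.198), with edgeR adjusted p-values of 0.0136 and 0.0188. The NK receptor gene Klre1 fell (-0.90 ± 0.213) and Il18rap rose (0.30 ± 0.101), with edgeR adjusted p-values of 0.0095 and 0.0653. Ctla4, an inhibitory receptor of T cells, fell by 0.70 ± 0.191 (edgeR adjusted p = 0.0216). In U2AF1(S34F) mice alone, the drug calls in these lists were led by Ctsc (1.12 ± 0.227) and Cd244 (0.43 ± 0.120), which rose, and by Klre1 (-1.07 ± 0.225), Ifng (-0.90 ± 0.244), Ccl5 (-0.83 ± 0.225) and Klra1 (-0.79 ± 0.224), which fell. Il18rap, Cd244 and Nkg7 averaged 422 ± 69.9, 43.0 ± 8.50 and 39.0 ± 2.13 CPM in vehicle U2AF1(WT) mice. There Klrb1c averaged 4.99 ± 1.83 and Ncr1 7.69 ± 3.06 CPM. Which marrow cells the Il18rap, Cd244 and Nkg7 reads came from was not tested. In U2AF1(WT) mice the drug called none of the 66 tested genes of the 4 lists, beside 3.07% of all genes. With both mutation and drug against neither, Klra3 (1.68), Klra8 (1.12), Klrc1 (1.04) and Ctsc (0.87) rose most, and Ifng (-2.03), Lef1 (-1.95), Ctla4 (-1.88) and Ccr7 (-1.70) fell most on the log2 scale. Ifng averaged 0.822 ± 0.493 CPM in vehicle U2AF1(WT) and 0.172 ± 0.0192 CPM in U2AF1(S34F) mice given drug. The fold changes of Klra3 and Ifng therefore rest on few reads. In that comparison 12 of 13 T cell transcription factor and state genes fell, beside 25.1% of all genes.

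Markers of some other cell types also differed between the groups, and their part in the result was not tested. The summed level of 6 B cell markers ran from 40.7 to 154 CPM in vehicle U2AF1(WT), 27.6 to 204 CPM in U2AF1(WT) with drug, 16.5 to 168 CPM in vehicle U2AF1(S34F) and 38.8 to 55.7 CPM in U2AF1(S34F) mice given drug. With genotype over both treatments 4 of the 6 B cell markers fell and 0 rose, where 27.1% of all genes fell. The median log2 drug difference of the 6 B cell markers was -0.65 in U2AF1(S34F) and 0.05 in U2AF1(WT) mice. That of the 5 monocyte markers was 0.42 and -0.49, and that of the 6 neutrophil markers -0.06 and 0.02. With both mutation and drug against neither, where 25.1% of all genes fell and 25.1% rose, all 6 B cell markers, 6 of 8 dendritic cell markers and 4 of 5 basophil, mast cell and eosinophil markers fell. The dendritic cell marker Clec9a rose in that comparison (log2 fold change 1.38 ± 0.187, edgeR adjusted p = 0.00013). There 1 of 6 neutrophil markers rose and 0 fell, 1 of 5 monocyte markers rose and 2 fell, 1 of 5 macrophage markers rose and 1 fell, and 2 of 6 erythroid markers fell and 0 rose. As a description over the 20 mice, which share groups and libraries, deviations of the mean log2 level of the CD3 genes from their group means had a Pearson r of 0.775 with those of B cell markers, 0.679 with dendritic cell, and 0.605 with erythroid markers. It was 0.397 with basophil, mast cell and eosinophil, 0.137 with macrophage, 0.043 with monocyte and -0.279 with neutrophil markers. For the 2 NK receptors these were, in the same order, 0.723, 0.785, 0.762, 0.678, 0.557, 0.485 and -0.621. None of these markers was at 0 in every mouse of a group.

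Likeness of pattern was described over the 20 mice, across 13263 other genes with a mean of at least 0.5 CPM. Closest to the mean log2 CPM of the 3 CD3 genes were Bcl11b (Pearson r = 0.941, Spearman rho = 0.854), C630004H02Rik (0.924, 0.880), Ppp1r16b (0.919, 0.875), St6gal1 (0.916, 0.832) and Traf3ip2 (0.916, 0.847). Closest to the mean of Klrb1c and Ncr1 were Klrk1 (0.943, 0.907), Klra9 (0.939, 0.794), Klrc2 (0.932, 0.884), Klra8 (0.931, 0.836) and Klra4 (0.918, 0.871). All 5 of the latter are NK cell receptor genes. Points share libraries, groups and donors, so these values describe the mice only. Between the 2 NK receptors themselves, deviations from the group means correlated at r = 0.935 over the 20 mice, whereas those of Ncr1 and Nkg7 correlated at -0.303. Those of Cd3e and Cd3g correlated at 0.739, but Cd3d correlated at only 0.218 with Cd3e and 0.139 with Cd3g. The CD3 mean used above thus joins genes that did not all vary together. Cd4 correlated at 0.852 with Klrb1c, and at 0.107, 0.591 and 0.612 with Cd3d, Cd3e and Cd3g.

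Reads were not spread evenly along Cd3d. Its first junction, from position 44790023 to 44793053 on chromosome 9, had 3719 reads over all mice, and its 3 later junctions had 795, 1270 and 1034. In each mouse the first junction was set against the mean of the later ones. That ratio had a median of 2.78 (2.21 to 3.49) in vehicle U2AF1(WT) and 2.94 (2.10 to 3.97) in U2AF1(WT) mice given drug. It was 4.50 (2.46 to 5.34) in vehicle U2AF1(S34F) and 4.43 (3.21 to 5.05) in U2AF1(S34F) mice given drug. The genotypes overlapped, this ratio was chosen after its values were seen, and it was not tested. When the first and later junctions were fitted as separate features in edgeR, the genotype difference over both treatments was 0.39 ± 0.193 for the first and -0.19 ± 0.175 for the later ones on the log2 scale, and the drug differences were -0.51 ± 0.193 and -0.54 ± 0.175. What this did to the Cd3d gene count was not tested.

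**Figure D3:**
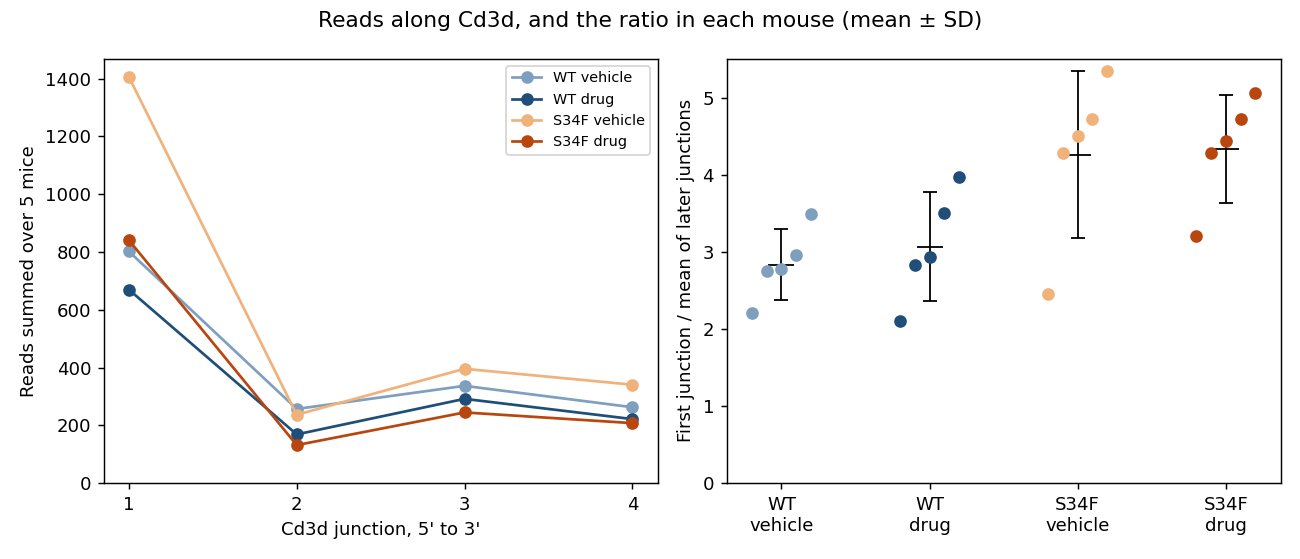
Left, reads on each Cd3d splice junction in order from 5′ to 3′, summed over the 5 mice of each group. Right, reads on the first junction divided by the mean of the later 3 in each mouse (points), with mean ± SD per group. The first junction holds 670 to 1406 reads per group against 132 to 396 on any later one.

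Splicing of the 10 genes was read from junction counts as the share of inclusion of annotated cassette exons. Inclusion is the mean of the reads on the 2 junctions of the exon over that mean plus the reads that skip it. In 7 of the genes 19 events had enough reads, and 0 of 19 were called by limma for drug over both genotypes (0.567% of all 69288 events) or for genotype over both treatments (1.6% of 69239). At an unadjusted p under 0.05 there were 2 for drug (the Cd8a exon below and a 279-base Ncr1 exon) and 1 for genotype (the Nkg7 exon below). The share of all events under this p was not computed. Most events were near full inclusion. The 3′ splice sites of the exons with the most skipping are given below with those of a Klrb1c exon that has 3 alternative ends, because U2AF1 contacts this place. Each shows 20 bases of intron and 3 of exon from the mm9 genome, with the last 3 intron bases in capitals.
Cd8a, 31-base exon, chr6:71325862-71325884, plus strand: ctcccttcttccttgtcTAGgga
Nkg7, 135-base exon, chr7:50693125-50693147, plus strand: tctcttgttcttgtcccCAGctc
Ncr1, 36-base exon, chr7:4289442-4289464, plus strand: ccattaaccctgttttcTAGggc
Cd3g, 24-base exon, chr9:44783351-44783373, minus strand: tttctctttctgttttcCAGgca
Klrb1c, 155-base exon, chr6:128734275-128734297, minus strand: atgtcttcctctcacttCAGatt
Klrb1c, 146-base exon, chr6:128734266-128734288, minus strand: tctcacttcagattgttCAGtta
Klrb1c, 137-base exon, chr6:128734257-128734279, minus strand: agattgttcagttaattTAGagt

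The Cd8a exon, an internal exon of the coding sequence whose skipping gives the form with a shortened cytoplasmic tail, was skipped most, with 105 skipping reads against 216 inclusion reads over all mice. Its inclusion averaged 75.4% ± 20.5 in vehicle U2AF1(WT), 55.4% ± 40.6 in U2AF1(WT) with drug, 74.8% ± 15.6 in vehicle U2AF1(S34F) and 37.2% ± 29.6 in U2AF1(S34F) mice given drug (SD over mice with reads). The drug difference was -28.3 ± 12.8 percentage points (SE) with a limma adjusted p of 0.652, and 1 mouse without reads on this event was left out of the fit. At 16.1 reads per mouse on average, single mice ran from 0% to 100%. Larger depth lay behind the Nkg7 exon, also coding, at 753 reads per mouse. Its inclusion was 89.9% ± 3.31, 90.1% ± 2.96, 93.3% ± 1.46 and 91.1% ± 0.607 in the same order of groups, and the genotype difference of 2.22 ± 1.04 points had a limma adjusted p of 0.623.

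The Ncr1 exon was included at 92.4% ± 10.6, 93.7% ± 8.27, 86.5% ± 5.18 and 92.2% ± 3.89, and the Cd3g exon at 99.6% ± 0.785, 96.7% ± 5.96, 96.3% ± 3.64 and 93.5% ± 9.12, again in that order of groups. Their genotype differences were -3.70 ± 3.21 and -3.23 ± 2.45 points. The Ncr1 difference was smaller than the SD between mice in every group, and the Cd3g difference in every group but vehicle U2AF1(WT). Where the Klrb1c exon begins, 654 reads used the first of its 3 ends, 162 the one 9 bases further in and 17 the one 18 bases further in. The first end held 66.1% of 62 reads in vehicle U2AF1(WT), 79.1% of 110 in U2AF1(WT) with drug, 79.5% of 420 in vehicle U2AF1(S34F) and 79.7% of 241 in U2AF1(S34F) mice given drug. Single vehicle U2AF1(WT) mice ran from 30.0% to 100%, and this share was described and not tested.

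**Figure D4:**
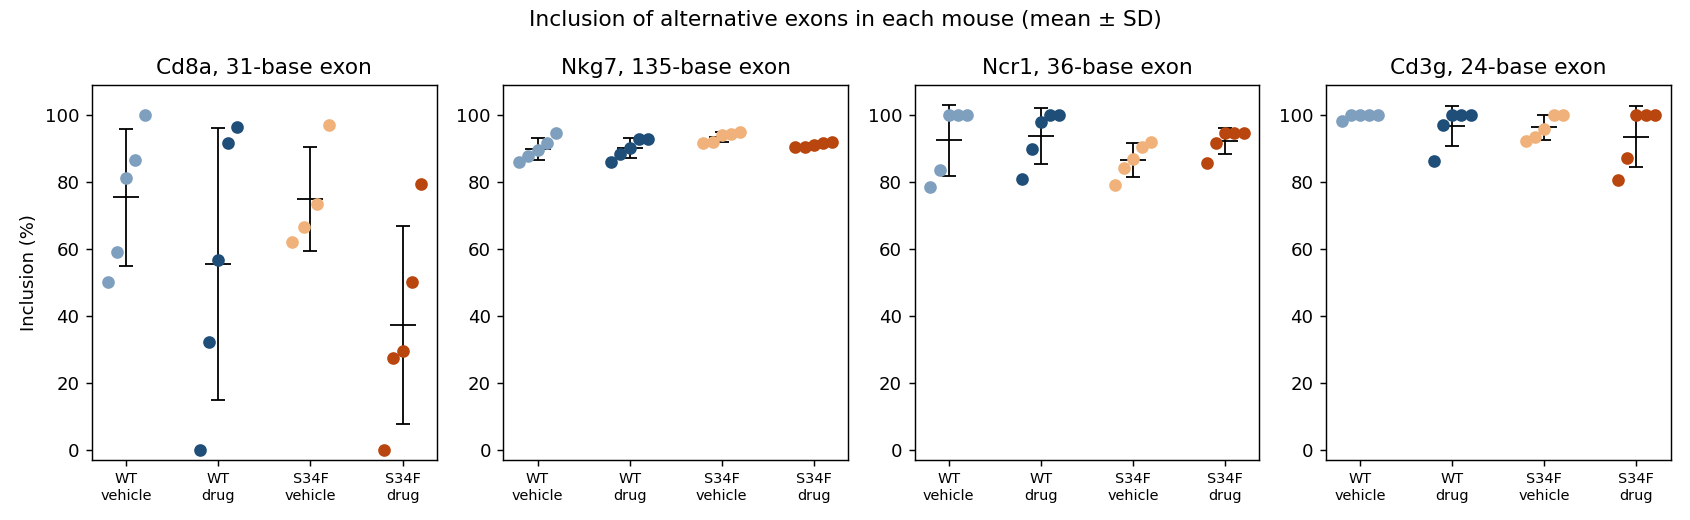
Inclusion in percent (vertical axis) of 4 alternative exons in each mouse with reads (points), with mean ± SD per group. Cd8a spans 0% to 100% between mice, and Nkg7 stays between 86.0% and 94.9% in all groups.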

How the data were processed

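Whole bone marrow RNA was depleted of ribosomal RNA and made into stranded libraries, sequenced as paired ends. The authors aligned reads to mm9 (TopHat2 2.0.8, per the labels) and deposited raw counts per Ensembl gene and per splice junction; the gene counter and its strand setting are not given in the sources used here. For gene counts, a robust quasi-likelihood fit (edgeR 4.0.16 under R 4.3.3, prior count 2) followed TMM scaling and the filterByExpr filter, with Benjamini-Hochberg adjustment over all genes and calls below 10%. CPM were scaled by TMM over the 20 mice. Inclusion was tested with limma 3.58.1 on events averaging at least 10 reads per mouse. DESeq2 1.42.0, other filters and scalings, and leaving out each mouse were alternatives. Data were also simulated for drug in S34F (14774 genes), with the same dispersion for every gene. Among 200 genes above a minimum of counts that were changed 2-fold, 94% were recovered, and 8.74% of the calls were unchanged genes. Cd3e lay below that minimum, and the members' own dispersions were not used, so 94% is not a recovery rate for the members. Every member was named in every comparison; from the wider lists all calls were named, or the 4 rising and the 4 falling most. The members and lists were chosen with earlier results of these data known. P-values measure the spread between mice that shared donor pools.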

Additional observations from a re-analysis of the deposited data

Results flagged for a closer look

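One value stood apart from the rest of its group among the 40 sets of 5 mice examined, a test that chance passes in about 1 of 20 groups. Cd3d in vehicle U2AF1(WT) mouse 2 was 3.24 CPM, against 6.08 CPM in the nearest mouse of that group, a gap of 0.868 of the group's range on the log2 scale.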

How the results depend on the processing

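No called member reversed direction under any alternative run. Of 1749 member values under the alternatives, 1688 kept their side of the threshold, 37 lost a call and 24 gained one; 56 values called in neither setting differed in sign. For drug in U2AF1(S34F) mice, where 2 of 10 were called, DESeq2 called 5, and 1 was called by one model of all 20 mice, by junction counts summed per gene (chosen after seeing the data) and at a threshold of 5%. Of all genes, DESeq2 called 2311 of 15502 there, the one model 788 of 15392 and junction counts 902 of 12413. For genotype under vehicle the 5% threshold left 2 of 4, and the share of all genes at 5% was not computed. DESeq2 called 1 member for the interaction, where edgeR called 0, beside 116 of 15280 and 2 of 15392 of all genes. On a logit scale with 0.5 read added, limma called 3 member exons for genotype against 0: a 116-base and a 155-base exon of Klrb1c, with 2 and 1 skipping reads in all mice, and a 44-base exon of Cd3g with 8. With so few skipping reads this scale mostly follows the number of inclusion reads. It therefore cannot tell a change in splicing from one in expression, which also differed with genotype for both genes. The share of all events called on this scale was not computed. Leaving out each mouse in turn gave 0 to 1 members for drug in U2AF1(WT), 0 to 5 for drug in U2AF1(S34F), 2 to 4 for genotype under vehicle and 1 to 2 for drug over both genotypes. The calls over all genes in these runs ran, in that order, from 191 of 14904 to 730 of 14915 and from 913 of 14842 to 1736 of 14864. For the last 2 they ran from 4817 of 14977 to 6943 of 14980 and from 1824 of 15573 to 3033 of 15532. Other calls ended under some settings: Nkg7 for genotype under vehicle with one model (edgeR adjusted p = 0.115), junction counts (0.253) and the mice with shared numbers (0.308 with the block, 0.296 without), Ncr1 under vehicle with no filter (edgeR adjusted p = 0.104), Klrb1c in both against neither with one model (0.116) and Cd3d there with junction counts (0.17). Nkg7 was gained for drug in U2AF1(WT) without drug mouse 9 (edgeR adjusted p = 0.0458).

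Mice of both genotypes share some replicate numbers, but deviations of same-numbered mice correlated at -0.111 to 0.211, and 2 of 7 matched best with their own number, so the numbers were not taken as pairs. With a replicate block on the mice with a shared number, 3 members were called for genotype under vehicle and 3 under drug, and 3 and 3 without the block on the same mice. Of all genes, 4632 of 14913 and 3734 of 14728 were called with the block, and 5180 and 3947 without it. Depth limits the low genes: Cd3e had 17 to 166 counts per mouse, Cd3g 40 to 175 and Cd8a 39 to 216.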
